A study of Rattus norvegicus with 6 samples.

Results

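The epicardium is the sheet of mesothelial cells that covers the outer surface of the heart, and 8 genes that mark it and other mesothelium were followed here in rat left ventricle. The genes were Msln, Krt19, Lrrn4, Upk3b, Wt1, Tbx18, Krt8 and Krt18. They were taken by gene symbol, with every probe set annotated to that symbol alone. A probe set is a group of array probes that together report a transcript. For 7 of the 8 genes there were 10 such probe sets, of 31042 probe sets tested and 14217 named genes. No probe set used here was annotated to Upk3b, a mesothelial uroplakin, so it was not analysed here. The list was chosen by measured values of these same arrays, the log2 differences between the Western plus DHA and Control diets described next. Values of that comparison are therefore given as a description and support nothing further.

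Left ventricles came from male Wistar rats that ate their diet for 12 weeks from the age of 6 weeks and were 18 weeks old at collection, after a night without food. One group ate the control diet (Control), another the Western diet alone (Western), and the last the same Western diet supplemented with docosahexaenoic acid, an omega-3 fatty acid of fish oil (Western plus DHA). Each diet was given to 10 rats. The sample titles were read as 2 pools of 5 rats per diet with 1 array per pool, but they do not say outright that the 2 arrays of a diet hold different rats. If they hold the same RNA, the spread between them is technical only. The study set out to bring about left ventricular hypertrophy by diet while keeping other disorders few, and compared each diet with each of the others.

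Mesothelial cells line the body cavities and the organs inside them as a thin epithelium. They keep simple epithelial keratins, whose filaments are built from pairs of type I and type II chains, and they carry surface proteins such as mesothelin. In the embryo the epicardium, marked by the transcription factors Wt1 and Tbx18, gives rise to cardiac fibroblasts and vascular mural cells. In the adult it is a thin layer, so it adds little of the RNA of a piece of ventricle. In bulk tissue, fewer cells of a type and less RNA per cell cannot be told apart.

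Values are log2 levels made with RMA, a method that sets all arrays to a common distribution, so a step of 1 is a doubling of signal. The array medians lay between 5.33 and 5.36. The level of a probe set depends on its probes as well as on the RNA, so the markers were not ranked among themselves by level. Each was only placed against the median of all probe sets. The tissue label was checked with 11 cardiomyocyte genes, none of which lay below the median of all probe sets and whose mean log2 level was 13.17 to 13.35 over the 6 arrays. Of the 10 marker probe sets, 8 had a mean below the median over all probe sets of 5.34. The brightest probe set of a gene stood for it in counts of genes, and for 5 of the 7 genes that probe set also lay below the median. The probe sets of Wt1 (6.82) and Lrrn4 (5.85) that stood for their genes lay above it. Of the probe sets below the median, those of Tbx18 (mean 4.93) and Msln (4.90) came nearest to it. Arrays are known to understate differences at such low levels.

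Control regions are printed for 3 of the genes, because Krt8 and Krt18 encode partner chains and lie next to each other in the genome, and Lrrn4 held the other motif found. Each run is the 250 bases before the gene start in RefSeq, 5′ to 3′ on the gene's own strand, assembly GRCr8. Capitals mark motif matches.
Krt8 (chr7:135010340-135010589, minus strand): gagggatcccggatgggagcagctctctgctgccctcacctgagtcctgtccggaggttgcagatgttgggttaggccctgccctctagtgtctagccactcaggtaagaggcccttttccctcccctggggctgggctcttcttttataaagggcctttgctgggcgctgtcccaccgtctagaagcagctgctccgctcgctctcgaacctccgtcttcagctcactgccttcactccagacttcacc
Krt18 (chr7:135035918-135036167, plus strand): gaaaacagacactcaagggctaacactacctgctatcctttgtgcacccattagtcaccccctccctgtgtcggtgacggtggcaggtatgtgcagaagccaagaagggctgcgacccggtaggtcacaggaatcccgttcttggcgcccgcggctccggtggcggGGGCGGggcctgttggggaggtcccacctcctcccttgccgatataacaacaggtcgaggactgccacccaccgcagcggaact
Lrrn4 (chr3:140603987-140604236, minus strand): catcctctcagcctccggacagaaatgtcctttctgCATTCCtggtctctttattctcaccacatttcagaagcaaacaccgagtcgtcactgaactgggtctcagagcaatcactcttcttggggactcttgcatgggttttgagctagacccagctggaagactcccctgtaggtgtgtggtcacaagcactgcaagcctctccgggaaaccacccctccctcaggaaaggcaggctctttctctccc
The 4 motifs searched on both strands were GGAATG (bound by TEAD factors), GGTGTGA (T-box factors), GCGTGGG (Egr factors and Wt1) and GGGCGG (Sp and Klf factors). They were looked for in the 6 of these genes for which a window was at hand, Lrrn4, Upk3b, Wt1, Tbx18, Krt8 and Krt18. GGAATG was present in 1 of the 6, Lrrn4, and in 11.8% of 27457 windows of all genes. GGGCGG was present in 1 of the 6, Krt18, and in 32.4% of all windows. GGTGTGA (3.19% of all windows) and GCGTGGG (3.88%) were in 0 of the 6. A match is a run of letters and not a shown binding site. The windows of Krt8 and Krt18 held 60.0% and 62.0% G and C, that of Lrrn4 53.2% and that of Wt1 71.6%, beside a median of 52% over all windows.

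Msln encodes mesothelin, a surface protein of mesothelial cells. Its probe set read 4.66 and 4.79 in Control, 4.81 and 4.74 in Western, and 5.17 and 5.22 in Western plus DHA. Both Western plus DHA pools lay above the other 4 arrays, while Western and Control overlapped. The log2 difference of Western plus DHA was 0.42 ± 0.12 from Western and 0.47 ± 0.12 from Control (standard errors of the fit, here and below, with n = 2 pools per diet). The second of these is a 1.39-fold level. Msln kept its pools close in each diet, with SDs of 0.091 in Control, 0.051 in Western and 0.036 in Western plus DHA.

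Krt19, a type I keratin of simple epithelia and mesothelium, had the largest difference among the 10 probe sets between Western plus DHA and Control. It read 3.15 and 2.97 in Control, 3.00 and 3.46 in Western, and 4.21 and 3.55 in Western plus DHA. The Western plus DHA pools were the 2 highest arrays, although the lower of them lay 0.088 above Western 2. The log2 difference was 0.82 ± 0.23 from Control and 0.65 ± 0.23 from Western. Without Western plus DHA 1 it was 0.49 from Control and 0.32 from Western.

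Krt8, the type II keratin that pairs with Krt18, read 3.23 and 3.09 in Control, 3.36 and 3.39 in Western, and 3.77 and 3.42 in Western plus DHA. Its type I partner Krt18 read 2.93 and 2.95 in Control, 3.16 and 2.97 in Western, and 3.24 and 3.46 in Western plus DHA. For both genes the 3 diets stood in the order Control, Western, Western plus DHA with no overlap of the pools of different diets. The gaps between neighbours were narrow: Krt8 in Western plus DHA 2 was 0.026 above Western 2, and Krt18 in Western 2 was 0.021 above Control 2. The log2 difference between Western plus DHA and Control was 0.43 ± 0.15 for Krt8 and 0.41 ± 0.14 for Krt18, and that of Krt8 was 0.26 without Western plus DHA 1. For Krt8 Western plus DHA 1 was the higher pool of its diet and for Krt18 it was Western plus DHA 2. Western stood 0.21 ± 0.15 above Control for Krt8 and 0.12 ± 0.14 for Krt18, and the latter was 0.030 without Western 1 and 0.22 without Western 2.

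**Figure D1:**
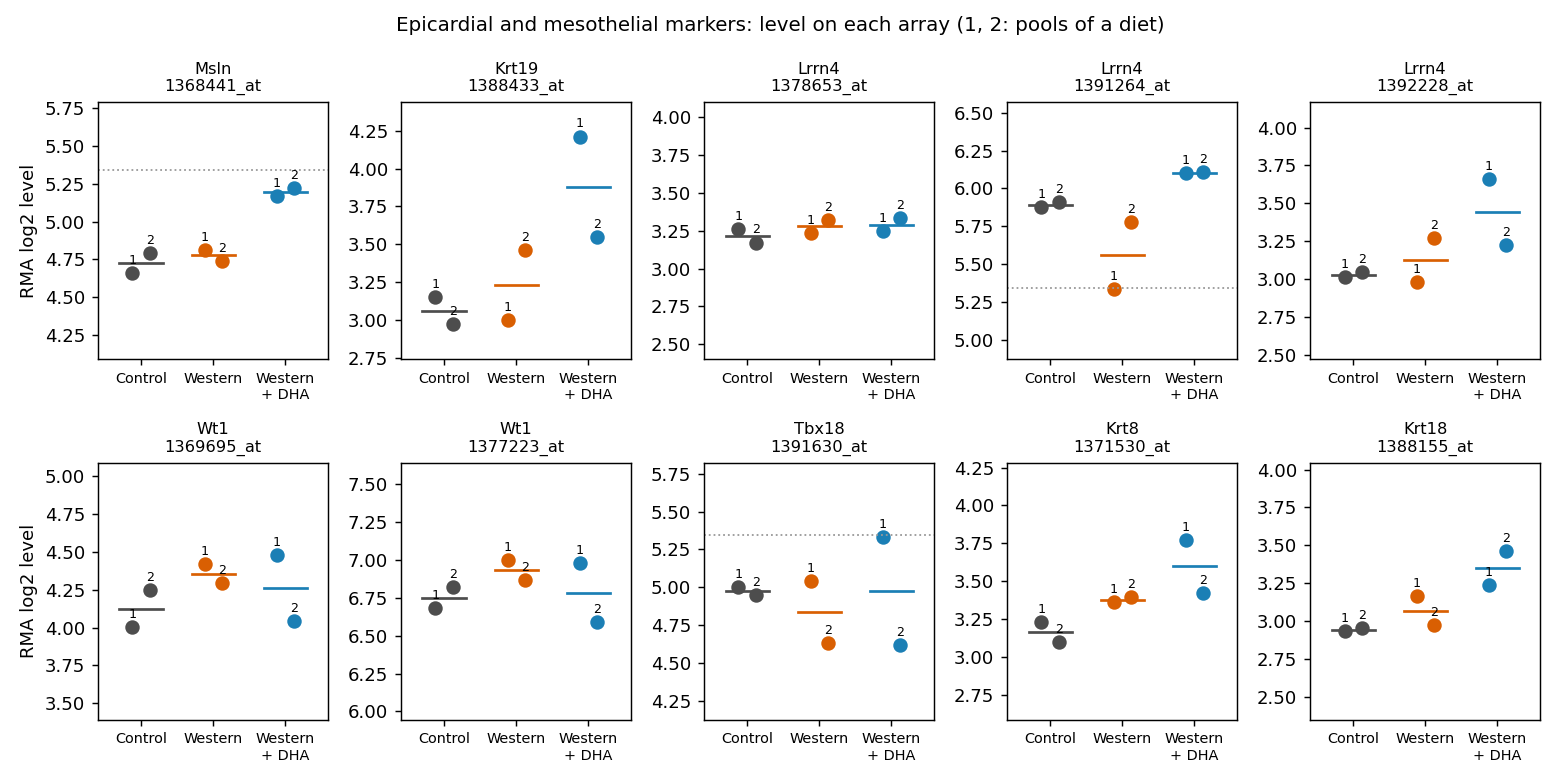
Log2 level (y axis, RMA units) of each of the 10 probe sets on the 6 arrays, by diet (x axis). Points are pools, numbered 1 and 2, bars are diet means, every panel spans the same log2 range, and the dotted line is the median over all probe sets (5.34) where it falls inside a panel. Msln, Krt19, Krt8, Krt18 and the brightest Lrrn4 probe set have both Western plus DHA pools above all other arrays, while Wt1, Tbx18 and the dimmer Lrrn4 probe sets do not.

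Lrrn4, a membrane protein with leucine-rich repeats that marks mesothelium, had 3 probe sets that differed among themselves. The brightest read 5.88 and 5.91 in Control, 5.34 and 5.78 in Western, and 6.10 and 6.11 in Western plus DHA. Western pools were the lowest and Western plus DHA pools the highest, with no overlap between diets. Western stood 0.33 below Control (a log2 difference of -0.33 ± 0.16), and Western plus DHA differed by 0.55 ± 0.16 from Western and by 0.21 ± 0.16 from Control. Western 1 was the lower Western pool, and without that array the differences were -0.11 between Western and Control and 0.32 between Western plus DHA and Western.

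Of the dimmer Lrrn4 probe sets, 1392228_at read 3.01 and 3.05 in Control, 2.98 and 3.27 in Western, and 3.66 and 3.23 in Western plus DHA. Its Western plus DHA pools lay above Control and overlapped Western. The remaining one, 1378653_at, read 3.26 and 3.17 in Control, 3.24 and 3.32 in Western, and 3.25 and 3.33 in Western plus DHA, so all diets overlapped. Its log2 difference between Western plus DHA and Control was 0.07 ± 0.12.

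Wt1, the Wilms tumour zinc finger factor of epicardium and mesothelium, is also found in endothelial cells of the heart. Its brighter probe set read 6.68 and 6.82 in Control, 7.001 and 6.87 in Western, and 6.98 and 6.59 in Western plus DHA. The other read 4.002 and 4.25 in Control, 4.42 and 4.30 in Western, and 4.48 and 4.04 in Western plus DHA. In both probe sets the Western pools lay above the Control pools, and Western plus DHA 2 lay below Western plus DHA 1, by 0.39 and 0.44. Western stood 0.18 ± 0.16 and 0.23 ± 0.17 above Control in the brighter and the dimmer probe set, and 0.11 above it in both without Control 1. Western plus DHA differed from Control by 0.03 ± 0.16 and 0.14 ± 0.17, and both values turned negative without Western plus DHA 1 (-0.16 and -0.083), the first also without Control 1 (-0.038).

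Tbx18 encodes a T-box factor of the embryonic epicardium that is also present in mural cells of vessels. Its probe set read 5.00 and 4.95 in Control, 5.04 and 4.63 in Western, and 5.33 and 4.62 in Western plus DHA. All diets overlapped, and the gap of 0.71 between the Western plus DHA pools was the widest of any marker probe set in any diet. The log2 difference was 0.00 ± 0.23 between Western plus DHA and Control and -0.14 ± 0.23 between Western and Control. Without Western plus DHA 1 the first was -0.36 and without Western plus DHA 2 it was 0.36.

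Differences were tested with limma across all 31042 probe sets, with Benjamini-Hochberg adjustment and a threshold of 0.05. Between Western and Control 0 of the 10 probe sets passed, as did 0% of all probe sets, with an adjusted p of 1 for each marker, and 0 of the 10 were under an unadjusted p of 0.05, where 2.83% of all probe sets were. Both Western pools stood above both Control pools in 4 of 10 probe sets (Wt1 with 2, Krt8 and Krt18). That held for 17.5% of all probe sets and 22.6% of those below the median level. The reverse held in 1 of 10, the brightest of Lrrn4, beside 13.5% of all (11.6% of those below the median). The median log2 difference over the 7 genes was 0.12, with a range of -0.33 to 0.21, beside a median of 0.01 over all genes and 0.05 over genes below the median level. The Control arrays here also entered the choice of the list, so these counts and this median are a description.

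Between Western plus DHA and Western 0 of 10 probe sets passed the limma test, beside 0% of all probe sets, and the lowest adjusted p of a marker was 0.983. Under an unadjusted p of 0.05 there were 3 of 10 (Msln, Krt19 and the brightest of Lrrn4), all higher in Western plus DHA, beside 4.06% of all. That count rose without Western plus DHA 2 and fell without either Western pool. Both Western plus DHA pools stood above both Western pools in 5 of 10, beside 19.5% of all (19.8% of those below the median). They stood below both Western pools in 0 of 10, beside 16% of all (12.4% of those below the median). The 5 were Msln, Krt19, Krt8, Krt18 and the brightest of Lrrn4. The median over the 7 genes was 0.28, with 6 above 0 and Wt1 at -0.15, beside a median of 0.01 over all genes. The Western plus DHA arrays here are among those on which the list was chosen, so these values too are a description.

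Between Western plus DHA and Control, the comparison that bore on the choice of the genes, 0 of 10 probe sets passed, beside 0.00322% of all probe sets. Under an unadjusted p of 0.05 there were 5 of 10, beside 8.87% of all, and this count was lower whichever array was left out. Both Western plus DHA pools stood above both Control pools in 6 of 10, beside 22% of all (27.9% of those below the median). They stood below both Control pools in 0 of 10, beside 15.1% of all (9.79% of those below the median). Log2 differences were above 0 in 10 of 10 probe sets, with Tbx18 at 0.00, but Tbx18 (-0.031 and -0.044) and the Lrrn4 probe set 1378653_at (-0.010 and -0.0030) were below 0 after quantile or cyclic loess normalization. Of all probe sets 56.6% were above 0, and 66.1% of those below the median level. The median over the 7 genes was 0.41, beside 0.03 over all genes and 0.09 over genes below the median level. Leaving out Western plus DHA 1 gave 0.26, and leaving out the other pool of that diet gave 0.36. No marker probe set was in the authors' deposited list of 66 probe sets.

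**Figure D2:**
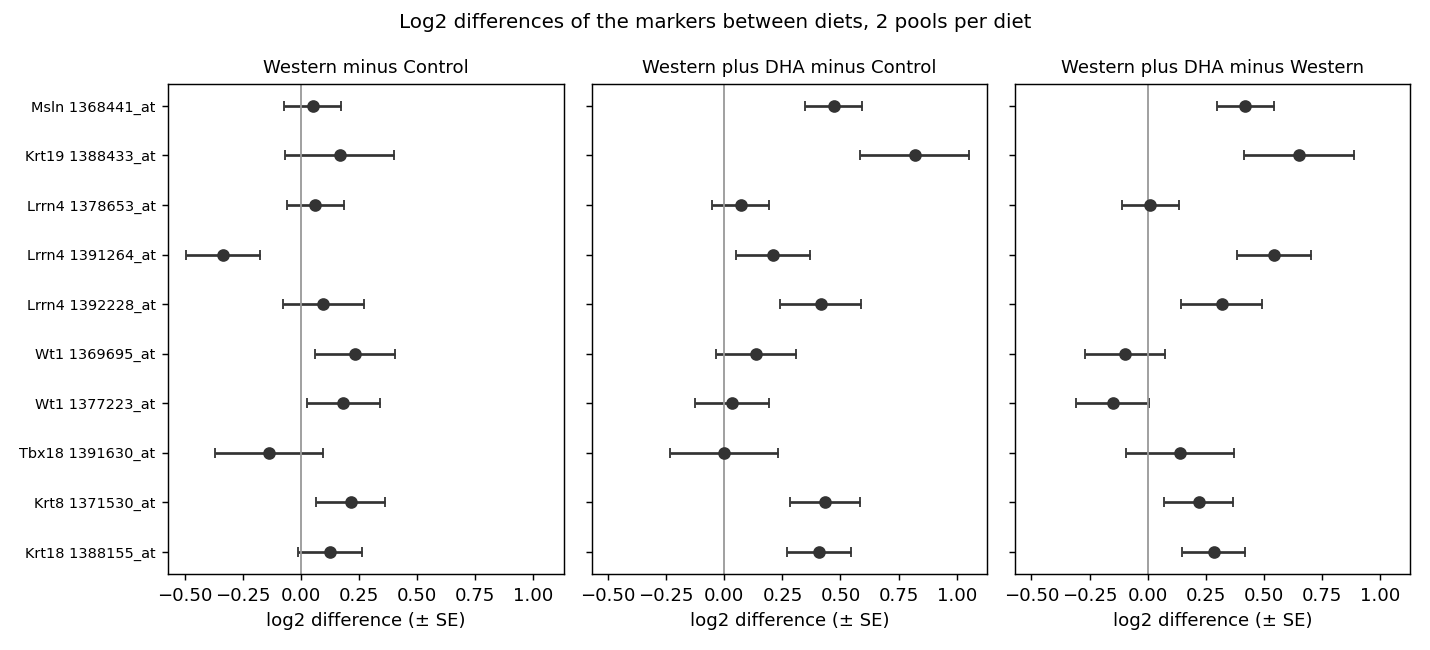
Log2 difference (x axis) of each marker probe set (y axis) in the 3 diet comparisons, with bars of 1 standard error from the limma fit and 2 pools per diet. The values between Western plus DHA and Control run from 0.00 for Tbx18 to 0.82 for Krt19, and those between Western and Control from -0.33 to 0.23.

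At the median over these markers the Western plus DHA pools differed from each other more than the pools of the other diets did. This did not hold for every probe set. Msln (0.051) and the brightest Lrrn4 probe set (0.0063) had their narrowest gap between pools in Western plus DHA. The median absolute gap between the pools of a diet over the 10 probe sets was 0.11 in Control, 0.16 in Western and 0.37 in Western plus DHA, beside 0.17, 0.12 and 0.17 over all probe sets. Western plus DHA 1 was the higher pool in 6 of 10 probe sets. The mean log2 level of the 7 genes was 4.50 in both Control pools, 4.53 and 4.55 in Western, and 4.97 and 4.71 in Western plus DHA. Both Western plus DHA pools were above the other 4 arrays, and Western plus DHA 1 stood farthest from them.

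Profiles over the 6 arrays were compared by the root mean square distance between levels centred on each probe set's own mean. Msln and Krt18 were nearest to each other among the 7 genes, at 0.0879, and Krt8 was nearest to Msln at 0.167. Wt1 and Tbx18 were nearest to each other at 0.197, and the widest distance was the 0.430 between Krt19 and Wt1. Among 9295 genes outside the marker lists at or above the median level, the 6 nearest to the mean profile of the markers were Bcl2a1 (0.0222), Eef1a1 (0.0439), Ddb2 (0.0462), Casp8ap2 (0.0480), S100a10 (0.0488) and Arl6ip1 (0.0525), beside a median distance of 0.203. Bcl2a1, an inhibitor of apoptosis, read 5.31 and 5.31 in Control, 5.34 and 5.31 in Western, and 5.80 and 5.52 in Western plus DHA. S100a10, a small protein that binds annexin A2, read 10.00 and 10.11 in Control, 10.03 and 10.09 in Western, and 10.52 and 10.17 in Western plus DHA. Like the mean of the markers, both genes were highest in Western plus DHA 1. Genes picked for nearness to that mean can be expected to share its highest array, so this is a description only.

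A further 22 genes of mesothelium and epicardium were taken from general knowledge of these cells, and 19 of them had a probe set, 8 of these below the median. They were listed with earlier results of these data known and read on the same arrays. Their values are therefore a description and not independent support for the marker values. By limma 0 of 19 passed in either direction in each of the 3 comparisons. Under an unadjusted p of 0.05 there were 0 of 19 for Western over Control (2.83% of all probe sets), 4 for Western plus DHA over Control (8.87%) and 3 for Western plus DHA over Western (4.06%). Log2 differences above 0 numbered 6, 13 and 16 of 19 in the same order, beside 52.2%, 56.6% and 53.1% of all probe sets, with medians of -0.02, 0.20 and 0.19. Both Western plus DHA pools stood above both Control pools in 7 of 19 (22% of all probe sets) and above both Western pools in 9 of 19 (19.5% of all).

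The 4 with the smallest p between Western plus DHA and Control were Efemp1, Pdpn, Calb2 and Upk1b. Efemp1, the matrix protein fibulin-3, read 7.73 and 7.81 in Control, 7.98 and 7.94 in Western, and 8.44 and 8.16 in Western plus DHA, and was in order of diet with no overlap. Its log2 difference was 0.53 ± 0.14 from Control and 0.34 ± 0.14 from Western. Pdpn (podoplanin), a surface glycoprotein of mesothelium and lymphatic endothelium, read 6.63 and 6.72 in Control, 6.63 and 6.71 in Western, and 7.45 and 6.90 in Western plus DHA. Upk1b, a uroplakin of urothelium and mesothelium, read 3.12 and 3.14 in Control, 2.98 and 3.12 in Western, and 4.03 and 3.29 in Western plus DHA. In Pdpn and Upk1b both Western plus DHA pools were above the other 4 arrays, with pool 1 well above pool 2. Calb2 (calretinin), a calcium-binding protein used to recognise mesothelial cells, read 4.39 and 4.48 in Control, 4.57 and 4.63 in Western, and 4.603 and 5.11 in Western plus DHA, so here pool 2 was the high one.

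Between Western plus DHA and Western the smallest p were those of Pdpn (0.51 ± 0.18), Upk1b (0.61 ± 0.22), Efemp1 and Slpi (0.51 ± 0.23). Slpi, a secreted inhibitor of leukocyte proteases, read 7.72 and 7.34 in Control, 7.41 and 7.43 in Western, and 8.27 and 7.57 in Western plus DHA, and overlapped between Western plus DHA and Control. Between Western and Control they were Ezr (-0.27 ± 0.18), which links membrane to actin, Efemp1 (0.19 ± 0.14), Podxl (-0.18 ± 0.15), a sialomucin of podocytes and endothelium, and the transcription factor Bnc1 (-0.16 ± 0.15). The limma adjusted p of the 4 genes named was 0.562 or 0.563 from Control to Western plus DHA, 0.983 from Western to Western plus DHA and 1 from Control to Western.

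**Figure D3:**
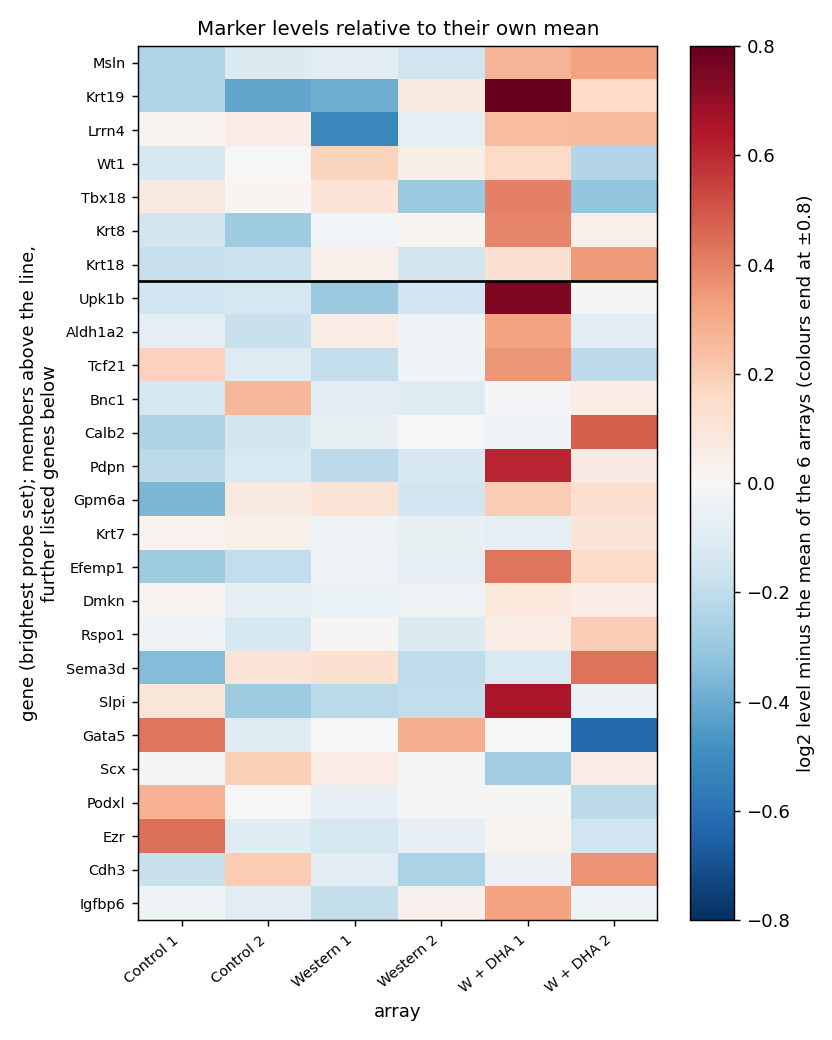
Log2 level minus the mean of the 6 arrays (colour) for the brightest probe set of each gene (rows), with the 7 markers above the line and 19 further genes below it, on the 6 arrays (columns). Western plus DHA 1 is the darkest red column for Krt19, Upk1b, Pdpn and Slpi, while Gata5 is lowest in Western plus DHA 2.

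Lists of other cell types also differed between arrays, and their part in the marker differences was not tested. Erythroid genes had a mean log2 level of 7.50 and 7.44 in Control, 7.62 and 7.69 in Western, and 7.73 and 7.80 in Western plus DHA. Log2 differences were above 0 in 6 of 7 genes between Western plus DHA and Control. Of all probe sets, 56.6% were above 0 in that comparison and 53.1% between Western plus DHA and Western, for this and the counts below. The 11 adipocyte genes were lowest in Control (6.00 and 5.94) and highest in Western (6.25 and 6.28), with Western plus DHA at 6.14 and 6.06. Cardiomyocyte genes read 13.28 and 13.23 in Control, 13.20 and 13.35 in Western, and 13.17 and 13.17 in Western plus DHA. Of the 11, log2 differences were below 0 in 9 between Western plus DHA and Control and in 10 between Western plus DHA and Western. Smooth muscle and pericyte genes read 8.14 and 7.84 in Control, 7.74 and 7.97 in Western, and 7.73 and 7.59 in Western plus DHA, with 9 of 10 below 0 between Western plus DHA and Control. Neutrophil genes (6 measured) were lowest in Control at 4.29 and 4.39, with 4.62 and 4.77 in Western and 4.58 and 4.52 in Western plus DHA.

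Western plus DHA 1 was also the highest array for the macrophage list (7.80, others 7.19 to 7.55) and the fibroblast list (9.71, others 9.23 to 9.61), and Western plus DHA 2 was the lowest for both. Endothelial genes read 9.01 and 8.82 in Control, 8.93 and 8.97 in Western, and 8.997 and 8.64 in Western plus DHA. Markers of other epithelia such as airway and gland, which share keratins with mesothelium, had 15 of 16 genes below the median and means of 3.51 and 3.52 in Control, 3.61 and 3.54 in Western, and 3.60 and 3.62 in Western plus DHA. The fibroblast and further mesothelial lists share Tcf21. The 3′ to 5′ log2 difference of control transcripts, a sign of RNA or labelling quality, was largest in Control 1 for the poly-A spike-ins (1.74, others 1.43 to 1.46) and Gapdh (0.68, others 0.30 to 0.47), and in Western plus DHA 1 for beta-actin (1.87, with 1.82 in Control 1 and 1.48 to 1.54 in the others).

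**Figure D4:**
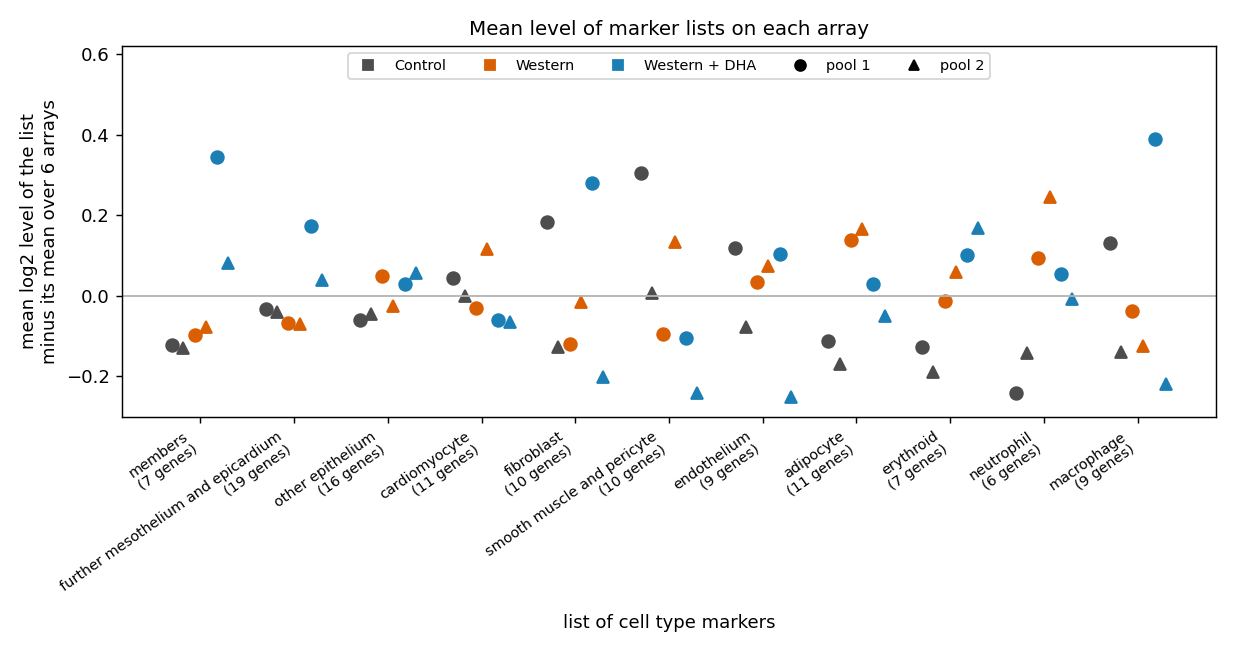
Mean log2 level of each list of cell type markers minus its mean over the 6 arrays (y axis), for the 7 markers and 10 other lists (x axis), with diets by colour and pools by shape. Western plus DHA 1 is the highest array for the markers, the further mesothelial genes, fibroblasts and macrophages.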

How the data were processed

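The authors deposited log2 expression values for 31099 probe sets on 6 Affymetrix rat arrays, and the submitters' processing notes name RMA and R 2.11.0. RMA shares 1 distribution over arrays, so differences in total RNA are not measured. The authors also deposited p-values and adjusted p-values, which were not used here, and no source states the test behind them. Their deposited log2 differences for the markers matched the fit to within 4.15e-08.

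The markers and gene lists were chosen with earlier results of these data known. After 57 Affymetrix control probe sets were left out, 31042 were fitted with limma 3.58.1 in R 4.3.3 (1 mean per diet, all 6 arrays sharing 1 spread, eBayes), with 3 residual and 5.28 prior degrees of freedom. P-values were adjusted over the 31042 by Benjamini-Hochberg. The labels name no batch. Since arrays hold pooled RNA, the spread behind each p-value is that between the arrays of a diet and not between single rats. It is a spread between pools only if the 2 arrays of a diet hold different rats. Gene symbols are those of the platform annotation, brought up to date by Entrez identifier with RefSeq (GRCr8), and 20826 probe sets had 1 symbol. The brightest probe set stood for a gene in lists. The named genes were all markers, the 4 further genes with the smallest p per comparison, and the 6 nearest profiles. On simulated data with 31042 probe sets and 200 changes in each of 10 runs, the fit recovered 12.2% of log2 changes of 0.5, 92.8% of 1 and 99.8% of 2 for Western plus DHA against Control. Noise in these runs was normal, with the spreads estimated by the fit taken as true, so recovery on the arrays themselves can be lower. Alternatives were a replicate block, 3 further normalizations, an intensity trend with robust prior, array weights, fits of 4 arrays, removal of dim probe sets, averaging the probe sets of a gene, and leaving out each array.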

Additional observations from a re-analysis of the deposited data

How the results depend on the processing

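The limma test called 0 marker probe sets in each of the 3 comparisons under every alternative run, with a lowest adjusted p of 0.179 (Western plus DHA against Control, an array left out). With 2 pools per diet, most simulated differences of 0.5 on the log2 scale were not recovered, and 8 of the 10 probe sets lay below the median level. The median over markers in Western against Control was 0.12, and -0.076 without dim probe sets, where 2 genes were left, and 0.030 to 0.12 with 1 array left out. In Western plus DHA against Control it was 0.41, with 0.33 after quantile normalization, 0.33 after cyclic loess, 0.12 without dim probe sets and 0.26 to 0.41 with 1 array left out. In Western plus DHA against Western it was 0.28, with 0.20 without dim probe sets and 0.24 to 0.40 with 1 array left out. Marker probe sets with the first-named diet higher and no overlap numbered 5 to 7 in Western against Control, 7 to 9 in Western plus DHA against Control and 5 to 8 in Western plus DHA against Western when 1 array was left out, beside 30.5% to 41.4%, 33.2% to 42.7% and 30.6% to 41.6% of all probe sets. Those with the first-named diet lower numbered 1 to 2, 0 to 2 and 0 to 3. Of all probe sets 27.5% to 33.7%, 27.9% to 31.2% and 28.3% to 34.5% were lower in this way. This alternative, added after seeing the data, eases the criterion by construction. Over all probe sets, the 1 call in Western plus DHA against Control became 0 with only the 4 arrays compared and 0 to 2 with 1 array left out. The 0 calls in Western plus DHA against Western became 1 after quantile normalization, 1 after median centring, 1 with an intensity trend and 1 with array weights. The difference of Lrrn4 1378653_at between Western plus DHA and Western, 0.01, turned to -0.021 after quantile normalization and -0.023 after cyclic loess, and lay between -0.032 and 0.053 with 1 array left out. The cause of these changes was not tested. With 1 array left out, other signs that turned in Western against Control were those of Msln (-0.014 to 0.12), Krt19 (-0.064 to 0.40), Lrrn4 1392228_at (-0.049 to 0.24) and Tbx18 (-0.34 to 0.066), and in Western plus DHA against Western those of Wt1 1369695_at (-0.32 to 0.12), Wt1 1377223_at (-0.35 to 0.044) and Tbx18 (-0.22 to 0.49).

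With a replicate block the medians were 0.12, 0.41 and 0.28 and the calls over all probe sets 0, 1 and 0, as without it. Deviations of same-numbered pools correlated at -0.21 (Western and Control), 0.20 (Western plus DHA and Control) and -0.23 (Western plus DHA and Western). A shared cause was not tested. A crossed block, added after seeing the data, called 1 probe set in Western against Control and 0 in Western plus DHA against Western.
Probe sets under an unadjusted p of 0.05 numbered 877 of all in Western against Control and became 2809 without Control 2. Leaving out Western 1 gave 535 and leaving out Western 2 gave 523. Without dim probe sets (fewer tested) the 3 comparisons had 248, 1418 and 557. In Western plus DHA against Control they numbered 2752 and became 1314 without Control 1 and 4955 without Control 2. In Western plus DHA against Western they numbered 1261 and became 2392 without Western plus DHA 1 and 476 without Western 2.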

Other observations

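Among the 16 markers of other epithelia, log2 differences between Western plus DHA and Control were above 0 in 10 and below 0 in 6, with a median of 0.048. Of all probe sets 56.6% were above 0, and 66.1% of those below the median level, where 15 of these 16 genes lay. The 2 with the smallest p were Agr2 and Krt14, and Krt20 (-0.10), Scgb1a1 (-0.09) and Esrp1 (-0.08) were among those below 0. Agr2, a protein disulfide isomerase of secretory epithelia, was picked for mention after its values were known. It read 4.94 and 4.51 in Control, 5.03 and 5.03 in Western, and 5.78 and 5.09 in Western plus DHA, in order of diet with no overlap. Its log2 difference between Western plus DHA and Control was 0.71 ± 0.23 (limma adjusted p = 0.562, n = 2 pools per diet), and it did not pass the test. Krt14, a type I keratin of stratified epithelia picked in the same way, read 3.67 and 3.60 in Control, 3.89 and 3.73 in Western, and 4.05 and 3.87 in Western plus DHA. Both Western plus DHA pools lay above both Control pools, and the lower of them lay below Western 1.

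Of the 19 further genes, 6 had a log2 difference below 0 between Western plus DHA and Control. Gata5, a transcription factor of the embryonic epicardium and endocardium, was the lowest of these. It read 7.56 and 7.04 in Control, 7.14 and 7.43 in Western, and 7.13 and 6.52 in Western plus DHA. The log2 difference from Control was -0.48 ± 0.24 and did not pass the test. Western plus DHA overlapped Control and lay below both Western pools.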
